A study of Mus musculus with 8 samples.

Results

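The mitochondrial ribosomal protein genes are the nuclear genes whose symbols start with Mrpl or Mrps followed by a digit. They were chosen by symbol alone, pseudogenes left out, on probe sets that carry 1 gene symbol, with the probe set of the highest mean where a gene had several. The rule found 75 genes, each on 1 probe set, of 29915 genes measured in the series. By the role table used here, 49 members belong to the large subunit of the mitochondrial ribosome and 25 to the small subunit. The remaining member, Mrps36, carries a ribosomal symbol but is a subunit of the 2-oxoglutarate dehydrogenase complex. Mrps30 and Mrps18a sit in the large subunit despite their symbols and were counted there.

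The mitochondrial ribosome is built from rRNAs encoded in mitochondrial DNA and from proteins encoded in the nucleus, made in the cytosol and imported. It translates the few mitochondrially encoded proteins, which are core subunits of the respiratory chain complexes and of the ATP synthase. Some of its proteins have bacterial homologues, and others were gained in mitochondria. Quiescent haematopoietic stem cells are known for a low reliance on oxidative phosphorylation, and the demand for it is known to grow when they are activated.

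The cells were long-term haematopoietic stem cells (LT-HSC) of mouse bone marrow, sorted as lineage-negative cells with Kit, Sca and CD150 but without Flk2 and CD48. The 4 groups were CD169-DTR mice given 2 Gy of total body irradiation, CD169-DTR mice without irradiation (sham), wild-type (WT) mice given 2 Gy and WT mice without irradiation (sham), with 2 arrays each. CD169-DTR mice (CD169DTR/+) carry the diphtheria toxin receptor under control of the CD169 (Siglec1) gene on 1 allele, so that the toxin depletes CD169+ macrophages. Mice of all 4 groups, WT included, received diphtheria toxin 72 h before the irradiation or the sham, and the cells were isolated at day 5 after it. The submitters' design text says that the replicates came from distinct experiments, and the labels used here do not say how many mice an array stands for. The p values therefore measure the spread between these arrays. In sorted cells, fewer cells of a type and less RNA per cell cannot be told apart. The CD169 gene places the receptor on CD169+ cells, whose depletion these arrays of sorted LT-HSC do not measure, and mice without toxin are not among the groups.

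The irradiation label was checked with Cdkn1a, the p53 target that encodes the cell cycle inhibitor p21, which lay between 13.06 and 13.41 log2 on the 4 arrays of 2 Gy and between 7.86 and 9.79 log2 on the 4 arrays without irradiation. Kit, a marker of the sort, lay between 14.25 and 14.93 log2. Of the genes of the markers that the gate excludes, Cd48 lay between 10.98 and 13.47 log2 and Flt3 (Flk2) between 5.85 and 8.22 log2. Both lay above the array medians given below on every array, so these RNA values do not check the purity of the sort. Siglec1, the gene that carries the receptor allele, lay between 3.86 and 4.12 log2, beside 25th percentiles of the arrays of 3.85 to 4.04 log2. The array medians over all probe sets were 4.76 to 4.93 log2. On the first principal component of all probe sets, replicate 2 of CD169-DTR at 2 Gy and replicate 1 of WT at 2 Gy lay farthest from the other arrays, and medians without both of them are given beside the results that use them.

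Promoter windows from RefSeq (build GRCm38.p6), with 250 bases before and 50 after an annotated start, were matched to 66 of the 75 members by 72 windows. The binding motifs of 5 factors or families known from promoters of mitochondrial genes were searched by their letters on both strands, and none of them contains another. CCGGAAG, the core bound by GABPA and other ETS factors, occurred in 34.72% of the members' windows and in 8.86% of all 32851 windows. GCATGCGC, a core of the NRF1 site, occurred in 11.11% of the members' windows and 2.71% of all, and AAGATGGCG, a core of the YY1 site, in 11.11% and 1.4%. The YY1 letters were shortened from a longer form after the shares of that form had been seen. GGGGCGGGG, the GC box bound by SP1, occurred in 19.44% of the members' windows and 11.45% of all. CACGTG, the E-box bound by Myc and USF, occurred in 9.72% and 7.15%. These shares count windows, not genes. Mrpl2 has several windows, and each held both the SP1 and the E-box letters, so that 1 gene raises both shares. The members' windows had a median GC content of 58.5% and a median of 21 CpG, against 52.67% and 7 over all windows. These shares were not adjusted for that base composition and describe letters, not binding. The 250 bases before the start are shown 5′ to 3′ along the gene for 4 members whose CD169-DTR arrays all lay above their WT arrays, to show how the motifs differ among them. Motif letters are in capitals.
Mrpl49: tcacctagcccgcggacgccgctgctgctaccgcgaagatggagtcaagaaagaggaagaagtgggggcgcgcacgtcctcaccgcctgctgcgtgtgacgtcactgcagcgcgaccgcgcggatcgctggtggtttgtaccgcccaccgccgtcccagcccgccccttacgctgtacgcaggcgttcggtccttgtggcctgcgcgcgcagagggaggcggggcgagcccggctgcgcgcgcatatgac
Mrpl10: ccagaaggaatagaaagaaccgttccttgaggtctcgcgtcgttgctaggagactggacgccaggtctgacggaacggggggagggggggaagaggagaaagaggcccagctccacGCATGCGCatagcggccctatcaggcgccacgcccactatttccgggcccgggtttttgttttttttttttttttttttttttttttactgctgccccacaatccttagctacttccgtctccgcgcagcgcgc
Mrps18a: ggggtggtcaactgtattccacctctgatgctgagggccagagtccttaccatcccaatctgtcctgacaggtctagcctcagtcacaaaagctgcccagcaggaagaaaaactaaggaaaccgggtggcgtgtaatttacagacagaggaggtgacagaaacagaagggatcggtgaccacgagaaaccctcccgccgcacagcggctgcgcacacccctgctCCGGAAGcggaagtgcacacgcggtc
Mrps18c: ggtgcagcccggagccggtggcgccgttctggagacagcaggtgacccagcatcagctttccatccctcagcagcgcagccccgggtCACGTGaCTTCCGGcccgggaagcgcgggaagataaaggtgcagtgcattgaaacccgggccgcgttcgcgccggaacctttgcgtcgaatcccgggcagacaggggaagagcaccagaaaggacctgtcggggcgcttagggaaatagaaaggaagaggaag
The 250 bases shown for Mrpl49 (chr19:6057756-6058005, minus strand) held none of the 5 motifs, which says only that these letters are not in them. The 50 bases after the start, which the shares above include, were not marked for these 4 members. In Mrpl10 (chr11:97041332-97041581, plus strand) the NRF1 core starts 134 bases before the start. In Mrps18a (chr17:46110754-46111003, plus strand) the ETS core starts 26 bases before it. In Mrps18c (chr5:100798509-100798758, plus strand) the E-box lies 163 bases before the start, and beside it the ETS core, read on the opposite strand, lies 156 bases before it.

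All 75 members lay above the median of all probe sets on every array, with values of 5.28 to 16.09 log2. A member's highest and lowest arrays differed by 0.27 to 1.43 log2, with a median of 0.68 log2. Mrpl24, a large-subunit protein with a bacterial homologue, had the smallest range, with 13.10 and 12.97 in CD169-DTR at 2 Gy, 12.99 and 13.24 in CD169-DTR without irradiation, 13.09 and 13.05 in WT at 2 Gy and 13.02 and 13.03 in WT without irradiation. The genotypes overlapped, while in WT the arrays of 2 Gy lay just above those without irradiation. Mrps27, a small-subunit RNA-binding protein, had the largest range, with 8.79 and 8.94, 9.37 and 8.67, 8.80 and 8.45, and 9.07 and 7.94 log2 in the same order of groups. The lowest value, 7.94 log2, was on a WT array without irradiation and the highest, 9.37 log2, on a CD169-DTR array without irradiation. The replicates of both these groups lay apart, most of all in WT. Mrps26, Mrpl18, Mrpl20 and Mrpl39 followed Mrpl24 at the narrow end, and Mrpl34, Mrpl10, Mrpl57 and Mrpl37 followed Mrps27 at the wide end.

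The members varied together more than probe sets at large. The mean correlation between pairs of members over the 8 arrays was 0.4007, against 0.0297 between all probe sets and 0.0169 between the 12840 probe sets whose mean lay in the range of the members' means. After the group means were removed it was 0.2151 for the members and 0.013 for all probe sets. The first principal component held 47.84% of the members' variance and 21.66% of that of all probe sets. These correlations share the arrays and their quality, and are given as a description. Per array, the median over members of the deviation from the own mean of each gene was 0.17 and 0.16 log2 in CD169-DTR at 2 Gy, -0.04 and 0.14 in CD169-DTR without irradiation, -0.14 and -0.005 in WT at 2 Gy and -0.24 and -0.07 in WT without irradiation. The 4 CD169-DTR arrays overlapped with the WT arrays in this measure only through replicate 1 without irradiation. That CD169-DTR array lay below replicate 2 of WT at 2 Gy. Replicate 1 of WT without irradiation was the lowest of the 8 arrays for 35 members and the highest for 0, and replicate 1 of CD169-DTR at 2 Gy was the highest for 25 and the lowest for 0.

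**Figure D1:**
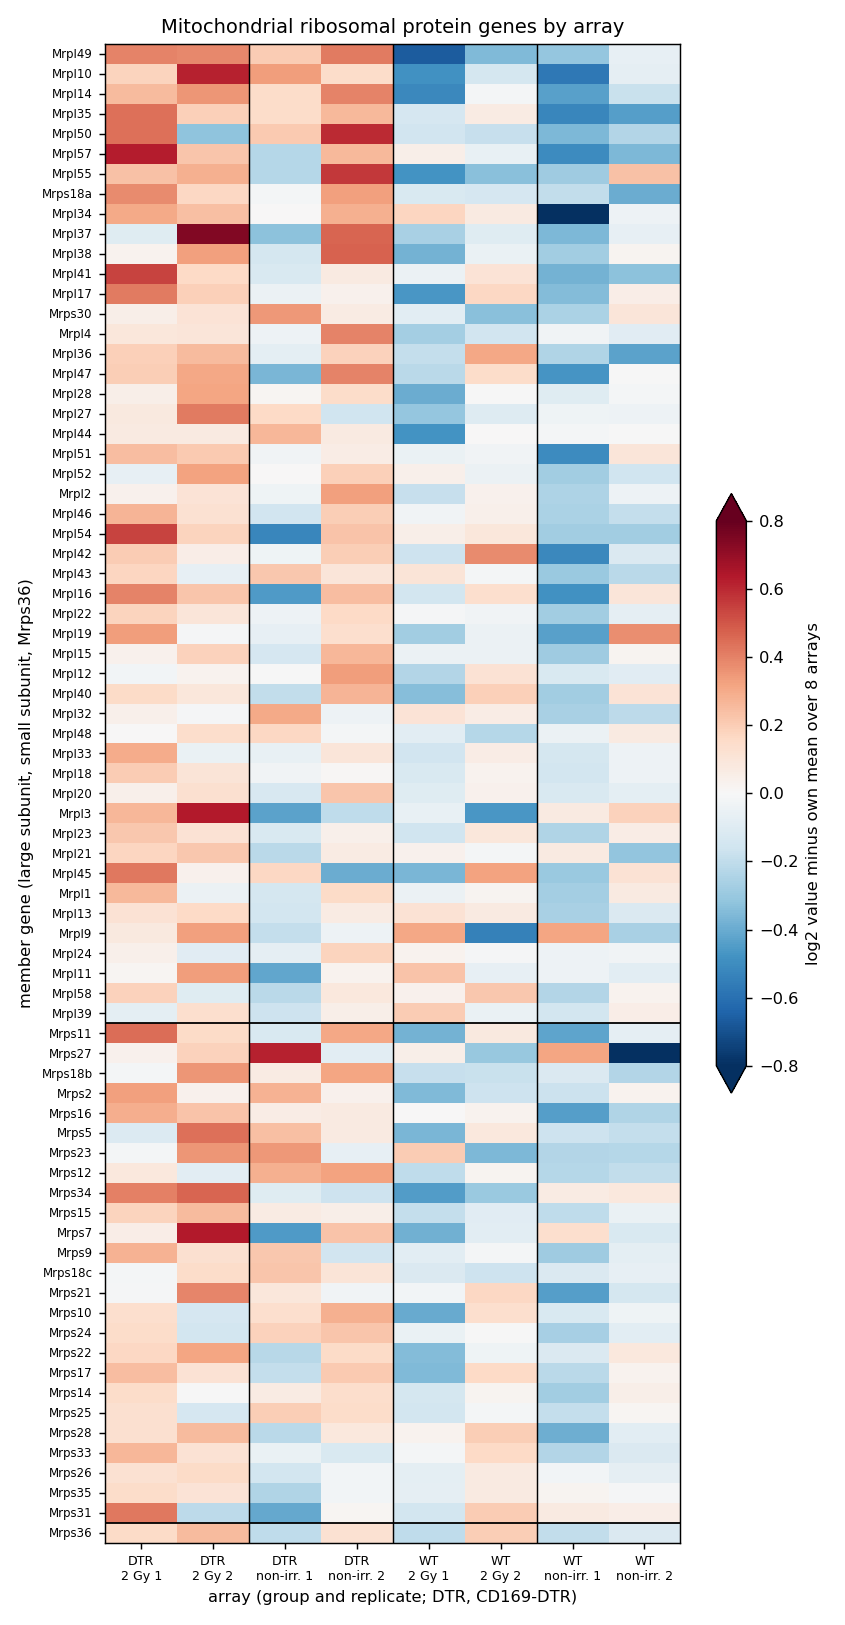
Deviation of each of the 75 members from its own mean over the 8 arrays (colour, log2; values past the ends of the scale share its end colour), with arrays in columns by group and replicate and genes in rows by subunit, sorted by the average difference between CD169-DTR and WT. Red prevails in the CD169-DTR columns except replicate 1 without irradiation, where 30 of the 75 members lie above their own mean, and blue in the first columns of both WT groups.

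**Figure D2:**
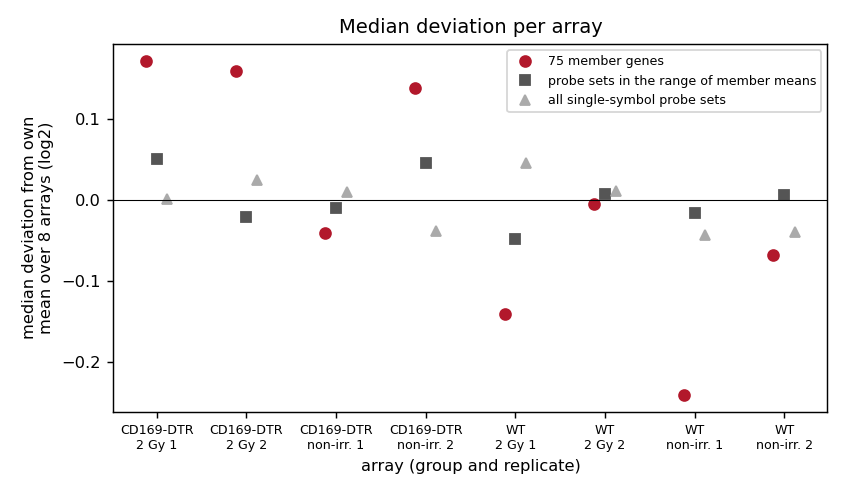
Median deviation from the own mean over 8 arrays (y axis, log2) for each array (x axis), for the 75 members (circles), for 12840 probe sets in the range of the members' means (squares) and for all single-symbol probe sets (triangles). The members reach from -0.24 to 0.17, and the squares and triangles stay between -0.05 and 0.05.

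The first question was whether the members differ between CD169-DTR and WT mice, which asks for a difference in LT-HSC after depletion of CD169+ macrophages. Averaged over both doses, 70 of the 75 members were higher in CD169-DTR and 5 lower, with a median difference of 0.22 log2. Without both arrays farthest from the others 71 were higher and the median was 0.17 log2. Over all 30294 probe sets 51% were higher and the median was 0.005 log2, and in the range of the members' means 55.17% were higher with a median of 0.0275 log2. No member passed an adjusted p under 0.05 in the limma fit (smallest adjusted p = 0.6832), and neither did any other probe set (0% of those tested). At an unadjusted p under 0.05, 15 members were higher and 0 lower, which is 20% of the members, against 3.75% of all probe sets higher and 2.58% lower. The difference was thus small, shared by most members, and not called for any single gene. This average was added after the comparison at each dose had been seen.

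Averaged over both doses, both subunits showed it to a like extent. In the large subunit 46 of 49 members were higher in CD169-DTR, with a median of 0.21 log2, and in the small subunit 23 of 25, with a median of 0.23 log2. Of the members with a bacterial homologue 43 of 44 were higher, with a median of 0.215 log2, and of the mitochondria-specific members 26 of 30, with a median of 0.22 log2. At 2 Gy 45 of 49 large-subunit and 25 of 25 small-subunit members were higher, and without irradiation 44 of 49 and 19 of 25. Without irradiation the mitochondria-specific members of the small subunit split into 5 higher and 5 lower (median 0.0325 log2). Those of the large subunit were higher for 18 of 20 (median 0.2825 log2). The 5 members lower in CD169-DTR were Mrps31, Mrps35, Mrpl11, Mrpl39 and Mrpl58, of which Mrps31 had the lowest value at -0.09 ± 0.18 log2 (SE, 4 arrays of each genotype). These 5 are named because of this count, after their values were seen. Mrpl58 encodes a peptidyl-tRNA hydrolase that rescues stalled mitochondrial ribosomes and is part of the large subunit. Mrps36, the member outside the ribosome, differed by 0.16 ± 0.13 log2.

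For 12 members all 4 CD169-DTR arrays lay above all 4 WT arrays, and for 0 members below. Over all probe sets 1.52% lay above and 1.09% below in this way, and 2.45% and 1.26% in the range of the members' means. The 12 members were Mrpl10, Mrpl14, Mrpl28, Mrpl35, Mrpl44 and Mrpl49 of the large subunit, together with Mrps18a, and Mrps2, Mrps15, Mrps16, Mrps18b and Mrps18c of the small subunit. Mrpl28, Mrpl44 and Mrps18c are named because of this count, after their values were seen.

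Mrpl49, a mitochondria-specific protein of the large subunit, had 12.23 and 12.22 log2 in CD169-DTR at 2 Gy and 12.04 and 12.25 in CD169-DTR without irradiation, against 11.17 and 11.48 in WT at 2 Gy and 11.53 and 11.77 in WT without irradiation. The CD169-DTR arrays lay close together and above every WT array. The average difference was 0.70 ± 0.11 log2 (1.62-fold), with an adjusted p of 0.6832.

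Mrpl35, the bL35 homologue of the large subunit, had 7.85 and 7.60 log2 in CD169-DTR at 2 Gy and 7.56 and 7.67 in CD169-DTR without irradiation, against 7.28 and 7.48 in WT at 2 Gy and 6.89 and 6.97 in WT without irradiation. Its groups by genotype did not overlap, and the WT arrays of 2 Gy lay between the CD169-DTR arrays and the WT arrays without irradiation. The average difference was 0.515 ± 0.10 log2 (1.43-fold).

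Mrpl14 is the homologue of bacterial uL14, on the face of the large subunit that meets the small one. It had 12.74 and 12.84 log2 in CD169-DTR at 2 Gy and 12.63 and 12.88 in CD169-DTR without irradiation, against 11.97 and 12.47 in WT at 2 Gy and 12.05 and 12.31 in WT without irradiation. Here the difference was of like size at both doses, with 0.57 log2 at 2 Gy and 0.575 log2 without irradiation.

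Mrpl10 anchors Mrpl12 at the stalk where translation factors dock. It had 7.64 and 8.08 log2 in CD169-DTR at 2 Gy and 7.80 and 7.61 in CD169-DTR without irradiation, against 6.98 and 7.32 in WT at 2 Gy and 6.89 and 7.39 in WT without irradiation. The lowest CD169-DTR array had 7.61 and the highest WT array 7.39 log2, and the average difference was 0.64 ± 0.17 log2 (1.56-fold).

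Mrps18a, Mrps18b and Mrps18c are related to bacterial S18, and the role table counts Mrps18c as its homologue and the other two as mitochondria-specific. Mrps18a had 9.11 and 8.90 log2 in CD169-DTR at 2 Gy and 8.72 and 9.06 in CD169-DTR without irradiation, against 8.61 and 8.60 in WT at 2 Gy and 8.54 and 8.34 in WT without irradiation. Its paralogues in the small subunit did likewise, with average differences of 0.36 ± 0.12 log2 for Mrps18b and 0.23 ± 0.08 log2 for Mrps18c, beside 0.425 ± 0.11 log2 for Mrps18a. In all 3 paralogues the genotypes did not overlap on the probe set used here. A second probe set of Mrps18b, shared with Gm16279 and left out by the rule, differed by only 0.02 ± 0.10 log2. The difference of Mrps18b thus rests on 1 of its 2 probe sets. Other small-subunit proteins without overlap were Mrps16 (0.325 ± 0.08 log2), Mrps15 (0.27 ± 0.08 log2) and Mrps2 (0.335 ± 0.12 log2). Mrps12, the homologue of the S12 protein at the decoding centre, differed by 0.30 ± 0.09 log2 on average, and by 0.09 log2 at 2 Gy beside 0.515 log2 without irradiation.

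**Figure D3:**
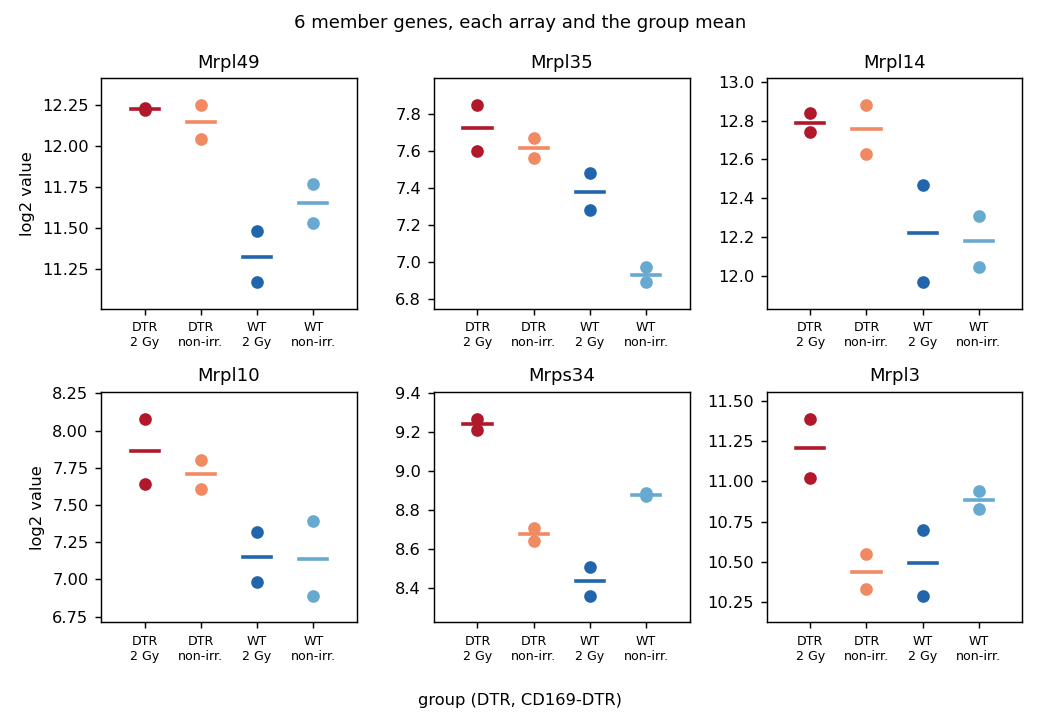
Values of 6 members on every array (points, log2, each panel on its own scale) with the group mean (bar), for CD169-DTR and WT at 2 Gy and without irradiation (x axis). In Mrpl49, Mrpl35, Mrpl14 and Mrpl10 all CD169-DTR points lie above all WT points, and in Mrps34 and Mrpl3 the group means order differently at the 2 doses.

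**Figure D4:**
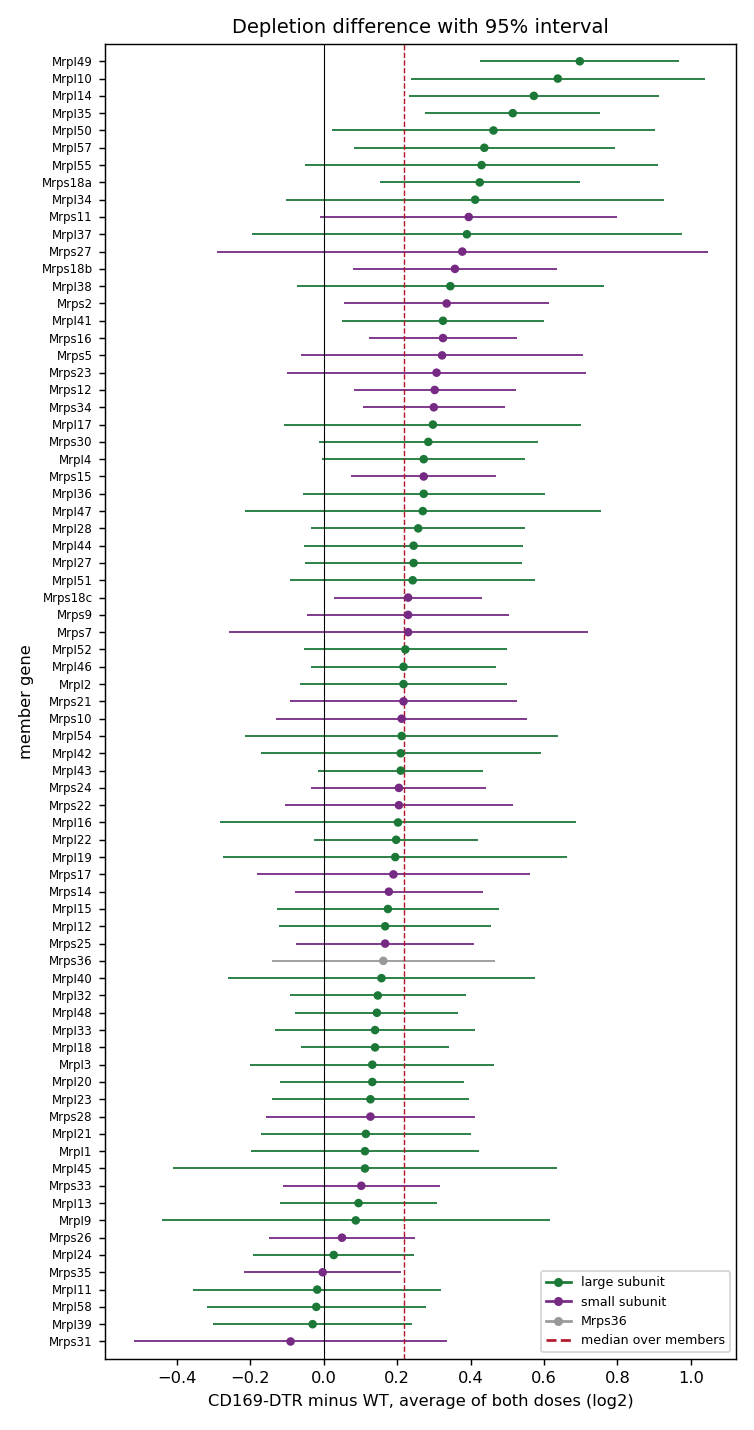
Difference between CD169-DTR and WT averaged over both doses (x axis, log2; positive is higher in CD169-DTR) for each member (y axis), with the 95% confidence interval of the limma fit, unadjusted for the number of genes. The dashed line is the median of 0.22; 5 members lie below 0, and the intervals of 15 members lie wholly above 0.

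The same comparison at each dose used no array in common. At 2 Gy, 71 of the 75 members were higher in CD169-DTR than in WT, with a median of 0.23 log2, against 45.7% of all probe sets with a median of -0.02 log2. Without both arrays farthest from the others, 60 members were higher and the median was 0.17 log2. Without irradiation 64 members were higher, with a median of 0.215 log2, against 57% of all probe sets with a median of 0.03 log2. There the count was 48 and the median 0.12 log2 without replicate 2 of CD169-DTR, and the median was 0.13 log2 without replicate 1 of WT. No member passed at 2 Gy (smallest adjusted p = 0.5368, limma) or without irradiation (smallest adjusted p = 0.9363). At an unadjusted p under 0.05, 10 members were higher and 0 lower at each dose, against 3.86% of all probe sets higher and 3.71% lower at 2 Gy, and 2.49% higher and 1.89% lower without irradiation. The CD169-DTR arrays lay above the WT arrays for 42 members and below for 1 at 2 Gy (16% and 18.9% of all probe sets), and above for 34 and below for 4 without irradiation (19.1% and 11.9%).

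Higher at both doses were 61 members (81.33%), against 26.8% of all probe sets and 30.93% of those in the range of the members' means. With 71 members higher at 2 Gy and 64 without irradiation, most had to be higher at both. The count of 61 therefore adds little to the counts at each dose and does not show a link between the doses. Lower at both was 1 member, Mrpl39, with -0.045 log2 at 2 Gy and -0.015 log2 without irradiation. At an unadjusted p under 0.05 at both doses 4 members were higher, Mrpl14, Mrpl35, Mrpl49 and Mrps18a, against 0.36% of all probe sets. The sizes did not go together: across the 75 members the correlation of the difference at 2 Gy with that without irradiation was -0.0103. Over all 30294 probe sets it was 0.0188, so this was not particular to the members. Mrpl49 differed by 0.90 log2 (1.87-fold) at 2 Gy and 0.495 log2 without irradiation, and Mrpl50, a mitochondria-specific large-subunit protein, by 0.225 and 0.70 log2. Mrpl35 differed by 0.345 log2 at 2 Gy and 0.685 log2 without irradiation.

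**Figure D5:**
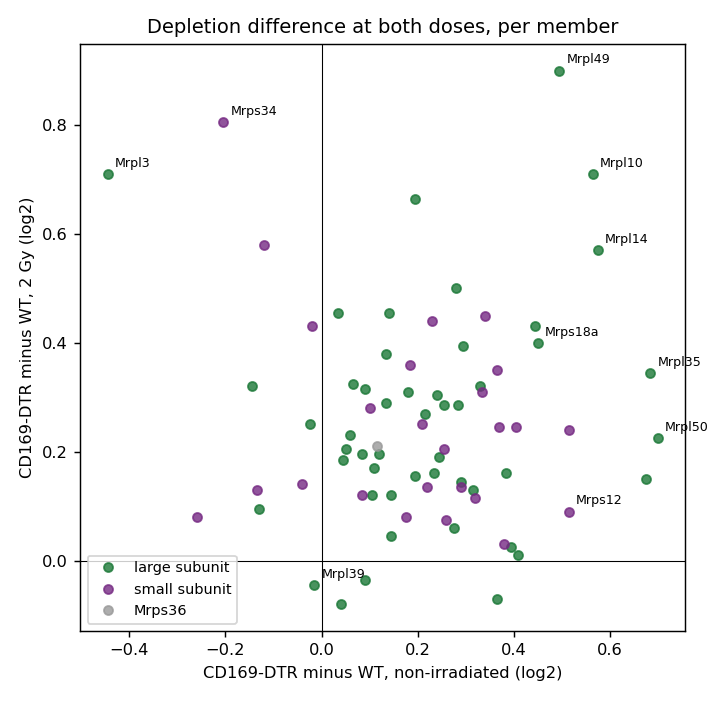
Difference between CD169-DTR and WT at 2 Gy (y axis) against that without irradiation (x axis) for each member, in log2, coloured by subunit. The upper right quadrant holds 61 of the 75 members, and Mrps34 and Mrpl3 lie at upper left.

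Markers of other cells and of the cell cycle were read on the same arrays. Mitosis genes were higher in CD169-DTR for 8 of 9 genes on average, with a median of 0.43 log2 and 3 of them at an unadjusted p under 0.05. Their mean level was 11.90 and 11.90 log2 in CD169-DTR at 2 Gy and 11.54 and 11.66 in CD169-DTR without irradiation, against 11.08 and 11.75 in WT at 2 Gy and 11.33 and 11.41 in WT without irradiation. Bub1, a mitotic checkpoint kinase, differed by 0.92 ± 0.23 log2 and Cdk1, the mitotic cyclin-dependent kinase, by 0.39 ± 0.12 log2. Mki67, the remaining gene of these 9, was lower on average in CD169-DTR. It had 14.93 and 14.86 in CD169-DTR at 2 Gy and 14.26 and 14.64 in CD169-DTR without irradiation. In WT it had 14.99 and 15.63 at 2 Gy and 15.23 and 14.63 without irradiation. LT-HSC markers were lower in CD169-DTR for 9 of 11 genes, with a median of -0.22 log2, and the lowest p among them was that of Procr, the endothelial protein C receptor (-0.34 ± 0.11 log2). Neutrophil and granulocyte-monocyte progenitor markers were higher in CD169-DTR without irradiation for 14 of 14 genes (median 0.73 log2) and at 2 Gy for 3 of 14 (median -0.565 log2). No marker of these lists passed (limma), and the part of cycling or of other cells in the members' difference was not tested.

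Other genes of mitochondrial translation were taken from lists by role. The 4 measured ribosomal proteins without an Mrpl or Mrps symbol were all higher in CD169-DTR on average. Ptcd3, an RNA-binding protein of the small subunit, differed by 0.53 ± 0.15 log2, Gadd45gip1 (CRIF1) of the large subunit by 0.40 ± 0.115 log2 and Dap3, a GTP-binding protein of the small subunit, by 0.28 ± 0.10 log2. The fourth, Chchd1, differed by 0.26 log2. Of 14 translation factors 11 were higher and 3 lower, with a median of 0.12 log2. Tufm, the elongation factor that brings aminoacyl-tRNA to the ribosome, had 13.72 and 13.81 log2 in CD169-DTR at 2 Gy and 13.62 and 14.06 in CD169-DTR without irradiation, against 12.72 and 13.15 in WT at 2 Gy and 13.35 and 13.52 in WT without irradiation. Its average difference was 0.62 ± 0.145 log2 (1.53-fold), and its genotypes did not overlap.

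Of 17 genes of mitochondrial protein import, the route by which the members' products reach the matrix, 16 were higher, with a median of 0.15 log2. Timm50, a receptor of the inner membrane translocase, differed by 0.485 ± 0.17 log2, and Timm10, a chaperone of the intermembrane space, by 0.375 ± 0.13 log2. Genes of ribosome assembly and rRNA modification were higher for 18 of 26, with a median of 0.12 log2. Genes of mitochondrial aminoacyl-tRNA synthesis were split, with 13 of 19 higher: Sars2, the seryl-tRNA synthetase, differed by 0.615 ± 0.20 log2, and Gatb, a subunit of the glutamyl-tRNA amidotransferase, by -0.62 ± 0.15 log2. Of 11 genes of mitochondrial DNA replication and transcription 9 were higher, among them the RNA polymerase gene Polrmt with 0.37 ± 0.08 log2. Of 11 transcription factors and coactivators of mitochondrial gene expression 7 were higher, with a median of 0.09 log2, and the lowest p among them was that of the coactivator gene Pprc1 (0.35 ± 0.11 log2). Among the factors whose motifs were searched, Nrf1 differed by 0.17 ± 0.11 log2 and Myc by 0.155 ± 0.15 log2, and Gabpa by -0.33 ± 0.20 log2 and Yy1 by -0.14 ± 0.12 log2. Myc and Yy1 are named for their motifs, after their values were seen. Of the mitochondrially encoded genes only the 12S rRNA gene mt-Rnr1 had a single-symbol probe set, and it differed by -0.05 ± 0.08 log2. None of the genes in these lists passed an adjusted p under 0.05 (limma).

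The second question was whether the members differ after irradiation. In CD169-DTR mice 57 of the 75 members were higher at 2 Gy than without irradiation and 17 lower, with a median of 0.115 log2, against 56.6% of all probe sets and a median of 0.035 log2. In WT mice 51 were higher and 24 lower, with a median of 0.065 log2, against 64.2% of all probe sets and a median of 0.075 log2. The WT split turned with the scaling: after centring each array on its median 32 members were higher and 43 lower, with a median of -0.05 log2, since centring moved the median of all probe sets to -0.04 log2. It also turned without replicate 2 of WT at 2 Gy (median -0.01 log2) or replicate 1 of WT without irradiation (-0.005 log2). Averaged over both genotypes 54 were higher and 20 lower (45 and 30 after centring), with a median of 0.10 log2, against 63.7% of all probe sets higher and 35.9% lower. Without both arrays farthest from the others the medians were 0.14 log2 in CD169-DTR, 0.15 log2 in WT and 0.105 log2 on average, where 59 members were higher. No member passed in CD169-DTR (smallest adjusted p = 0.5162, limma), in WT (0.5024) or on average (0.4494). Of all probe sets 0% passed in CD169-DTR, and 0.0099% (3 probe sets) passed both in WT and on average. At an unadjusted p under 0.05, 2 members were higher and 0 lower in CD169-DTR, against 3.24% of all probe sets higher and 3.53% lower. In WT 2 were higher and 1 lower, against 4.6% and 3.21%, and on average 8 were higher and 0 lower, against 5.24% and 3.98%. The members' shares that were higher were thus 2.67% in each genotype and 10.67% on average, and they moved with the scaling. With cyclic loess they were 6.67% in CD169-DTR, 8% in WT and 10.67% on average. With median centring they were 2.67%, 0% and 2.67% in the same order.

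The arrays of 2 Gy did not overlap with those without irradiation for 22 members in CD169-DTR, 19 higher and 3 lower (17.8% and 13.4% of all probe sets), and for 28 in WT, 21 higher and 7 lower (31.4% and 13.2%). With both genotypes pooled, 2 members lay higher on all 4 arrays of 2 Gy, Mrpl13 and Mrps33, and 0 lower, against 3.76% of all probe sets higher and 1.74% lower. Mrpl13, the uL13 homologue, had 11.06 and 11.11 log2 in CD169-DTR at 2 Gy and 11.06 and 11.02 in WT at 2 Gy, against 10.80 and 11.01 in CD169-DTR without irradiation and 10.69 and 10.83 in WT without irradiation. Its average difference was 0.23 ± 0.09 log2. Mrps33, a mitochondria-specific small-subunit protein, differed by 0.26 ± 0.09 log2. The lowest unadjusted p on average was that of Mrpl41, a mitochondria-specific large-subunit protein, with 0.375 log2 in CD169-DTR and 0.385 log2 in WT. It had 7.32 and 6.94 log2 in CD169-DTR at 2 Gy against 6.66 and 6.85 in CD169-DTR without irradiation, and 6.73 and 6.89 in WT at 2 Gy against 6.40 and 6.45 in WT without irradiation. Mrpl57 differed by 0.42 ± 0.15 log2, Mrpl54 by 0.43 ± 0.18 log2 and Mrps28, the small-subunit homologue of bacterial S1, by 0.30 ± 0.12 log2. Members higher in both genotypes numbered 40 (53.33%, against 39.3% of all probe sets), and members lower in both numbered 6 (8%, against 17.8%). Neutrophil and granulocyte-monocyte progenitor markers differed with irradiation too, higher for 5 of 14 genes in CD169-DTR (median -0.17 log2) and for 13 of 14 in WT (median 1.605 log2).

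Other marker lists differed with irradiation as well, averaged over both genotypes. LT-HSC markers were higher at 2 Gy for 5 of 11 genes and lower for 6, with a median of -0.205 log2, and 1 was higher and 5 were lower at an unadjusted p under 0.05. Among them Kit differed by -0.515 ± 0.08 log2, Hlf by -0.55 ± 0.09 log2 and Robo4 by -0.70 ± 0.11 log2. Ctnnal1 went the other way, with 8.36 and 8.03 log2 in CD169-DTR at 2 Gy and 8.09 and 7.76 in WT at 2 Gy. Without irradiation Ctnnal1 had 7.26 and 7.51 in CD169-DTR and 7.52 and 7.66 in WT. It is named for its direction, after its values were seen. Of the genes of the gate's excluded markers, Cd48 had 13.47 and 13.00 log2 in CD169-DTR at 2 Gy and 12.95 and 12.14 in WT at 2 Gy, against 11.05 and 12.54 in CD169-DTR without irradiation and 11.24 and 10.98 in WT without irradiation. Its average difference was 1.44 ± 0.35 log2, and that of Flt3 (Flk2) was -1.32 ± 0.28 log2. Megakaryocyte markers were higher for 7 of 8 genes (median 0.60 log2), mast cell, basophil and eosinophil markers for 6 of 8 (median 0.40 log2), neutrophil markers for 12 of 14 (median 0.56 log2), mitosis genes for 9 of 9 (median 0.15 log2) and erythroid markers for 2 of 10 (median -0.26 log2). No gene of these lists passed (limma), and their part in the members' values was not tested.

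The third question was whether the irradiation difference in CD169-DTR departs from that in WT, which the interaction term of the same fit tests. Of the members 39 had a larger and 35 a smaller difference in CD169-DTR, with a median of 0.03 log2, against 41.8% of all probe sets larger and a median of -0.05 log2. After median centring the split was 53 and 21, with a median of 0.125 log2, and without replicate 1 of CD169-DTR without irradiation the median was -0.12 log2. Without both arrays farthest from the others 33 members had a larger difference and the median was -0.025 log2. No member passed (smallest adjusted p = 0.7532, limma), 0% of all probe sets passed, and 2 members, Mrps34 and Mrpl3, had an unadjusted p under 0.05 and were higher (2.67%, against 2.4% of all probe sets higher and 2.78% lower). Marker lists departed too: neutrophil markers had a smaller irradiation difference in CD169-DTR for 14 of 14 genes (median -1.43 log2, 5 of them at an unadjusted p under 0.05) and erythroid markers for 8 of 10 (median -0.53 log2). Mast cell, basophil and eosinophil markers had a larger one for 6 of 8 genes (median 0.81 log2, 3 of them at an unadjusted p under 0.05). Their part in the members' values was not tested.

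Mrps34 encodes a protein needed in the mouse for a stable small subunit. It had 9.21 and 9.27 log2 in CD169-DTR at 2 Gy against 8.71 and 8.64 in CD169-DTR without irradiation, and 8.36 and 8.51 in WT at 2 Gy against 8.87 and 8.89 in WT without irradiation. The 4 groups did not overlap, and the groups of 2 Gy were the highest in CD169-DTR and the lowest in WT. The irradiation difference was 0.565 ± 0.11 log2 in CD169-DTR and -0.445 ± 0.11 log2 in WT, so that the difference between CD169-DTR and WT was 0.805 log2 (1.75-fold) at 2 Gy and -0.205 log2 without irradiation. The interaction was 1.01 ± 0.16 log2 with an adjusted p of 0.7532.

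Mrpl3, the uL3 homologue that reaches toward the peptidyl transferase centre, had 11.02 and 11.39 log2 in CD169-DTR at 2 Gy against 10.33 and 10.55 in CD169-DTR without irradiation, and 10.70 and 10.29 in WT at 2 Gy against 10.83 and 10.94 in WT without irradiation. Again the arrays of 2 Gy lay above those without irradiation in CD169-DTR and below them in WT. The irradiation difference was 0.765 ± 0.20 log2 (1.70-fold) in CD169-DTR and -0.39 ± 0.20 log2 in WT. In Mrps24, the uS3 homologue, it ran the other way, with -0.205 log2 in CD169-DTR and 0.145 log2 in WT. These 3 members (4%) had opposite irradiation differences without overlap in the 2 genotypes, against 4.44% of all probe sets.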

How the data were processed

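LT-HSC RNA was measured on 8 Affymetrix arrays, 2 for each of 4 groups taken from the sample titles. The deposited table holds log2 values made by the authors with RMA, per the submitters' processing notes; the base of the log is not stated in the table and was taken from RMA's convention. Signals were labelled with a whole-transcript Pico kit per the labels' protocols. The values were used as deposited, without a filter. Of 40161 probe sets, 30294 paired with 1 gene symbol in the platform's gene table were tested, with symbols updated through the RefSeq gene table (1 member, Mrpl58).

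A model with the 4 group means was fitted with limma 3.58.1 (lmFit, eBayes; R 4.3.3) on all 8 arrays, with 4 residual and 2.586 prior degrees of freedom. A gene passed a comparison where its two-sided p, after Benjamini-Hochberg adjustment over the 30294 probe sets of that comparison, was under 0.05. Errors are SE of the fit and intervals are 95%; the number of arrays limits the precision. The depletion average over both doses was added later. In simulated data for irradiation in WT with 30294 probe sets, 49 of 100 probe sets changed 2-fold and 88 of 100 changed 8-fold were recovered. Of 30094 unchanged probe sets 9 were called. Smaller changes, such as those of the members, were not simulated.

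Members, lists and comparisons were chosen with earlier results of these data known. Genes named are the 10 members with the smallest p per comparison, the 5 with the widest and the 5 with the narrowest range, and up to 3 genes per list and comparison; exceptions are stated. Replicate numbers were not taken as pairs. Same-numbered arrays of 2 groups had correlated deviations of only -0.0877 to 0.1591 over all probe sets (-0.1858 to 0.3493 over the members). Such a correlation across genes can miss a shift shared by all members. The members' median deviation was lower in replicate 1 than in replicate 2 in every group except CD169-DTR at 2 Gy. Whether the replicate number marks the experiment is not known, and a block is given as an alternative. Alternatives were an intensity trend, a filter on dim probe sets, all probe sets, cyclic loess, median centring, array weights, a replicate block, only the groups compared, an unadjusted threshold with a fold change, and arrays left out. Mrpl30, Mrpl53 and Mrps6 had only probe sets shared with another gene and were not analysed here as members. Mrpl23, Mrpl48 and Mrps36 have pseudogene copies whose transcripts the probes may not tell apart.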

Additional observations from a re-analysis of the deposited data

Results flagged for a closer look

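In 3 members every array of 2 Gy lay on one side of the arrays without irradiation in CD169-DTR and on the other side in WT. They are 4% of the members, against 4.44% of all probe sets, so the members did not stand out by this rule. The irradiation difference in CD169-DTR minus that in WT was 1.01 log2 for Mrps34 (limma interaction, adjusted p = 0.7532), 1.155 log2 for Mrpl3 (adjusted p = 0.8745) and -0.35 log2 for Mrps24 (adjusted p = 0.9572). None of the 3 passed, and over one-array-out fits the values ranged from 0.935 to 1.085, from 0.95 to 1.36 and from -0.495 to -0.205 log2. With 2 arrays a group, no array could be tested as an outlier of its own group.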

How the results depend on the processing

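No member passed in any of the 7 comparisons under any alternative with an adjusted p. An unadjusted p under 0.05 and a fold change of at least 1.5 were also used in its place. Then 1 member counted for irradiation in CD169-DTR, 2 for the interaction and 2 for depletion without irradiation. For depletion after 2 Gy 4 counted, for the depletion average 2, and for irradiation in WT and on average 0. No share of all probe sets under this rule is given here. The counts are therefore not read as a result about the members. Leaving out each array in turn gave medians over members of 0.1775 to 0.265 log2 for the depletion average, 0.175 to 0.28 after 2 Gy and 0.12 to 0.315 without irradiation. For irradiation they were 0.035 to 0.2 in CD169-DTR, -0.01 to 0.17 in WT, turning sign without WT 2 Gy replicate 2 or WT non-irradiated replicate 1 (-0.005), and 0.0575 to 0.145 on average. For the interaction they were -0.12 (without CD169-DTR non-irradiated replicate 1) to 0.115. Cyclic loess and median centring gave 0.1685 and 0.24 for the depletion average.

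The number of members with an unadjusted p under 0.05 leaned on single arrays. Over all probe sets the shares higher and lower were 3.75% and 2.58% for the depletion average and 3.86% and 3.71% after 2 Gy. They were 2.49% and 1.89% for depletion without irradiation, and 5.24% and 3.98% for irradiation on average. For the depletion average it was 15, and 10 without WT non-irradiated replicate 1. After 2 Gy it was 10, and 4 without WT 2 Gy replicate 1. Without irradiation it was 10, and 4 without WT non-irradiated replicate 1 or 5 without CD169-DTR non-irradiated replicate 2. For irradiation on average it was 8, and 2 without WT non-irradiated replicate 1. The cause was not tested. With the replicate number as a block 0 members passed, and the medians were as without it (0.2175 log2 for the depletion average), as a balanced block gives. For the depletion average the block gave 19 members with an unadjusted p under 0.05 (limma) instead of 15. The share of all probe sets with the block is not given here. Lone arrays were assumed to vary like the other groups. The median residual SD was 0.1817 log2, close to the size of the members' median difference, and values were printed to 2 decimals.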

Other observations

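Probe sets of the family left out by the rule gave these averages of CD169-DTR minus WT over both doses: 0.185 ± 0.10 log2 for the probe set shared by Mrpl30 and Gm6238, 0.025 ± 0.16 for that of Mrpl53 and Ccdc142, 0.25 ± 0.09 for that of Mrps6 and Slc5a3, and 0.02 ± 0.10 for a second one of Mrps18b, shared with Gm16279. The pseudogenes gave 0.23 ± 0.16 log2 (Mrpl23-ps1), 0.175 ± 0.12 (Mrpl48-ps), 0.32 ± 0.12 (Mrps36-ps1) and 0.39 ± 0.16 (Mrps36-ps2). All 8 were above 0 and none passed (limma, smallest adjusted p = 0.7404).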
